A study of Mus musculus with 3 samples.

Results

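The genes described here encode the proteins of the mitochondrial ribosome. They were taken as every gene feature of the array whose single platform gene symbol is Mrpl or Mrps followed by a number and at most 1 letter. This gave 72 genes among the 19015 rows tested, 47 of the large subunit (Mrpl) and 25 of the small subunit (Mrps), each measured by 1 feature with a value on all 3 arrays. The mouse gene table held 78 such symbols, and Mrpl22, Mrpl47, Mrps2, Mrps26, Mrps27 and Mrps35 were not analysed here. The rule itself uses no measured value, but it was chosen with earlier results of these data known.

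The study compared fetal kidney at 13.5 days post coitum (dpc) with metanephroi at 11.5 dpc, when the permanent kidney begins to form. Both came from normal CD1 mice, an outbred strain, and were microdissected as pools of both sexes. Each of 3 Compugen oligonucleotide arrays compared amplified RNA of both ages in its 2 channels, with the dye order red/green on arrays 1 and 2 and green/red on array 3. The values are log2 ratios, most likely of 11.5 dpc over 13.5 dpc, so that a positive ratio means a lower level at 13.5 dpc than at 11.5 dpc. The labels do not state the direction of the ratio in words, and every direction given below turns if that reading is wrong. Whether the 3 arrays carry separate dissections is not given in the labels. The p-values therefore cover only array-to-array spread, which may be technical, and the small number of arrays limits the precision. In whole pooled tissue, fewer cells of a type and less RNA per cell cannot be told apart.

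Mitochondria hold their own ribosomes, which translate the few proteins still encoded in mitochondrial DNA, all of them subunits of the respiratory chain and ATP synthase. The ribosomal RNAs come from mitochondrial DNA, whereas every ribosomal protein is encoded in the nucleus, made in the cytoplasm and imported. Many of these proteins descend from bacterial ribosomal proteins, and others are found only in mitochondrial ribosomes. Kidney tubule cells of the mature organ depend on mitochondrial respiration for ion transport.

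No mitochondrial ribosomal protein gene passed the test. With limma, which tests whether the mean log2 ratio differs from 0, the Benjamini-Hochberg adjusted p ranged over these 72 genes between 0.497 and 0.987, and 0.0% of all rows passed 0.05. The ratios were small and leaned to the positive side, that is towards a lower level at 13.5 dpc than at 11.5 dpc. Their median was 0.14, a 1.10-fold difference, against -0.0084 over all rows. A positive mean was found for 46 genes (63.9%), where 49.1% of all rows had one. The log2 ratio was positive on all 3 arrays for 30 genes (41.7%), against 16.8% of all rows, and negative on all 3 for 4 genes (5.56%), against 18.5% of all rows. The other 38 genes had mixed signs. No gene reached 2-fold in 1 direction on each of the 3 arrays taken singly, which 0.684% of all rows did.

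At an unadjusted limma p under 0.05, 7 genes had a positive mean (Mrps5, Mrps22, Mrps16, Mrps10, Mrpl2, Mrpl9 and Mrpl24), where 4.17% of all rows did, and 0 had a negative mean, where 5.07% of all rows did. That count of 7 was 0 without array 1, 0 without array 2 and 2 without array 3, where 1.53%, 2.2% and 7.06% of all rows did. With the sign of array 3 turned, the reading under which its dye swap had not been taken into account, the count was also 0. In that setting 4.39% of all rows did, and the means of these 7 genes lay between 0.0045 and 0.33. A mean of at least 1.5-fold was found for 5 genes, all positive (6.94%, against 6.86% of all rows), and for 0 genes with a negative mean (7.22% of all rows). The median SD over arrays was 0.23 for these genes and 0.34 for all rows.

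The arrays did not measure with equal spread. The SD over gene features was 0.56 on array 1, 0.79 on array 2 and 0.97 on array 3, and the medians were 0.010, 0.065 and -0.091. Over all rows the ratios correlated at r = 0.27 between arrays 1 and 2, 0.12 between arrays 1 and 3 and -0.12 between arrays 2 and 3. Across the 72 genes these values were 0.29, 0.32 and 0.13, as a description across genes that share each array's normalisation and dyes. The ratio had the same sign on arrays 1 and 3, whose dye orders are opposite, for 54 of the 72 genes (75.0%), and for 54.9% of all rows. On arrays 2 and 3 it did for 40 genes (55.6%), against 51.2% of all rows, and on arrays 1 and 2, of equal dye order, for 46 genes (63.9%), against 64.5% of all rows.

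In the small subunit, 14 of 25 genes (56.0%) were positive on all 3 arrays, against 16.8% of all rows. Another 1 was negative on all (4.0%, against 18.5% of all rows) and 10 had mixed signs. After median centring, scaling or quantile normalisation of the arrays, 11 genes were positive on all 3, against 17.5% to 17.8% of all rows. The median of the gene means was 0.19, and the medians on the single arrays were 0.26 on array 1, 0.11 on array 2 and 0.072 on array 3. Arrays 2 and 3 lay closer to 0 than array 1. With array 3 turned, 0 genes of the small subunit were positive on all arrays (18.9% of all rows), 2 were negative on all (10.3% of all rows) and the median was 0.078.

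**Figure D1:**
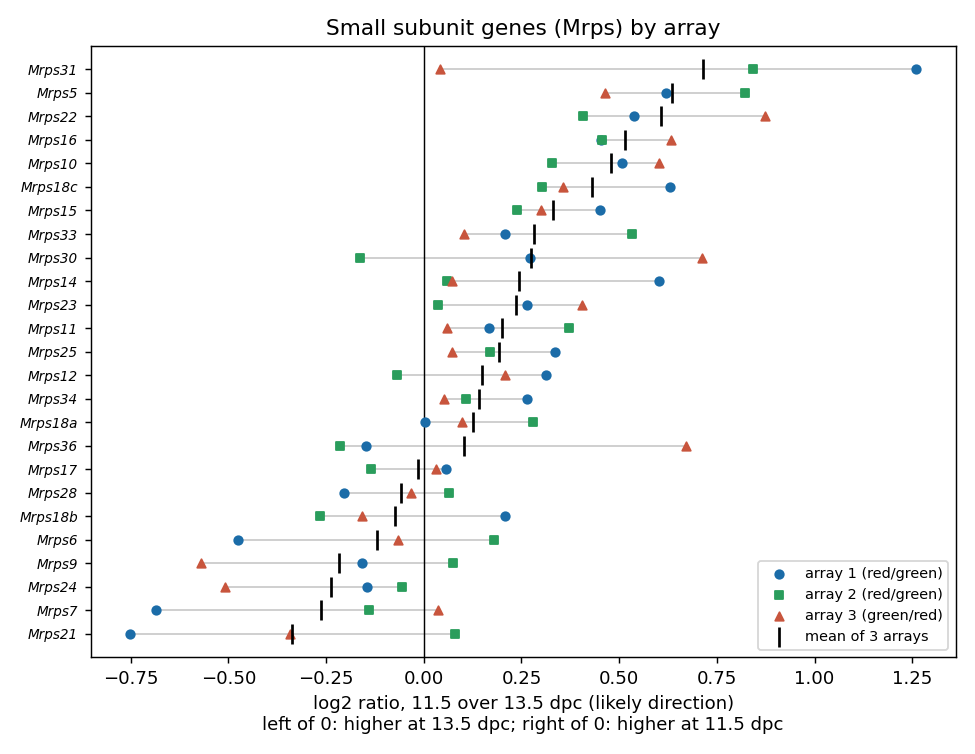
Log2 ratio of each of the 25 small subunit genes (horizontal axis, likely 11.5 over 13.5 dpc) on array 1 (circles), array 2 (squares) and array 3 (triangles), with the mean as a bar and a line over the range, ordered by the mean. Mrps31 at the top spans 0.043 to 1.26, whereas the 3 values of Mrps5, Mrps22, Mrps16 and Mrps10 all lie above 0.3, and Mrps24 is the gene with all its values below 0.

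Mrps5 lines the channel through which mRNA enters the small subunit. It had log2 ratios of 0.62, 0.82 and 0.46 on arrays 1, 2 and 3, with a mean of 0.64 ± 0.18 (SD, n = 3 arrays), or 1.55-fold lower at 13.5 dpc than at 11.5 dpc, and a limma adjusted p of 0.497. All 3 arrays stood well above 0, and this was the lowest adjusted p among the 72 genes. Mrps22, a protein found in mitochondrial ribosomes only and mutated in a human mitochondrial disease with heart and kidney tubule involvement, had 0.54, 0.41 and 0.87, a mean of 0.61 ± 0.24 (limma adjusted p = 0.516). Mrps16, a bacterial counterpart also mutated in human mitochondrial disease, had 0.45, 0.46 and 0.63, a mean of 0.51 ± 0.10 (limma adjusted p = 0.516). For Mrps22 and Mrps16 alike the dye-swapped array gave the highest value and no array came near 0 as deposited. With array 3 turned, the mean was 0.024 for Mrps22, 0.092 for Mrps16 and 0.33 for Mrps5.

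The promoter windows of Mrps5, Mrpl39 and Mrps22 are shown because these 3 genes had the largest limma statistic among genes of 1 sign on all arrays, Mrps5 among them all, Mrpl39 (given with the tunnel exit) among those with a match to the motif of nuclear respiratory factor 1 (NRF1), and Mrps22 among those with an ETS match. NRF1 and the ETS family factor GABP are the activators best known for driving nuclear genes of mitochondria. Only windows whose 250 bases before the start touch no annotated gene were considered, and only matches within those bases. Mrpl9, Mrpl45 and Mrpl44 also carried the NRF1 motif and had larger statistics than Mrpl39, but had no window that met both conditions. Each sequence gives the 250 bases before the annotated start on the strand of the gene, from RefSeq (GRCm38.p6), at chr2:127587176-127587425 on the plus strand for Mrps5, chr16:84735245-84735494 on the minus strand for Mrpl39 and chr9:98601680-98601929 on the minus strand for Mrps22. Capitals mark the match to the NRF1 motif in Mrpl39 and the ETS letters CCGGAAG in Mrps22, and the Mrps5 window holds none of the motifs searched.
Mrps5: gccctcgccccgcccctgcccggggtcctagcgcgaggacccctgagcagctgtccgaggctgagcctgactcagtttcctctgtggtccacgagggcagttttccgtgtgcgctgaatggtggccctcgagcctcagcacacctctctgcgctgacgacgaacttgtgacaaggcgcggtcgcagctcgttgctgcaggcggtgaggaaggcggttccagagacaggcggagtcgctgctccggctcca
Mrpl39: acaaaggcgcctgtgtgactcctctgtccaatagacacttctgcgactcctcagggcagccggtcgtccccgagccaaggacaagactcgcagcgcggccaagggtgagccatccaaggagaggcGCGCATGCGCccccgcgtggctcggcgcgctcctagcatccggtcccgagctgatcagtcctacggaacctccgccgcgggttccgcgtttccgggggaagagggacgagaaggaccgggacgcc
Mrps22: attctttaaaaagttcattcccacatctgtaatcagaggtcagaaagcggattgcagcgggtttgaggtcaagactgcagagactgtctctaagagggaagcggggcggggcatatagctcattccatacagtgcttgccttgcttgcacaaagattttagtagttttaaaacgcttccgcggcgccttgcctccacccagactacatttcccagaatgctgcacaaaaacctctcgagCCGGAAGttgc

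The head of the small subunit holds the tRNAs and turns during translocation. Of its 7 measured proteins, 4 were positive on all arrays (57.1%, against 16.8% of all rows), with a median of 0.24. Another 1 was negative on all (14.3%, against 18.5% of all rows). Mrps10 had 0.51, 0.33 and 0.60, a mean of 0.48 ± 0.14 (limma adjusted p = 0.534). Mrps31, which occurs only in mitochondrial ribosomes, had 1.26, 0.84 and 0.043, a mean of 0.71 ± 0.62 (limma adjusted p = 0.553). Its array 3 value lay near 0, while on arrays 1 and 2 it had the highest ratio of the small subunit, and its mean was 1.05 without array 3 and 0.44 without array 1. Mrps7, mutated in human disease with liver and kidney failure, had -0.69, -0.14 and 0.037, a mean of -0.26 ± 0.38, and arrays 1 and 3 had opposite signs. Mrps24, which sits where the head meets the mRNA channel, had -0.15, -0.056 and -0.51, a mean of -0.24 ± 0.24 (limma adjusted p = 0.672). It was the small subunit gene with a negative ratio, that is a higher level at 13.5 dpc than at 11.5 dpc, on every array as deposited, and its mean was 0.10 with array 3 turned.

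Mrps12, which belongs to the decoding centre where codon and anticodon are matched, had 0.31, -0.068 and 0.21, a mean of 0.15 ± 0.20, with array 2 apart in sign. Mrps21 had the lowest mean of the small subunit, -0.34 ± 0.42, from -0.75, 0.079 and -0.34. Again array 2 had the opposite sign to the others.

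Mrps18a, Mrps18b and Mrps18c are paralogs related to a single bacterial protein of the small subunit. Mrps18c, which holds the place of the bacterial protein, had 0.63, 0.30 and 0.36, a mean of 0.43 ± 0.17 (limma adjusted p = 0.539). Mrps18a, which in the mammalian ribosome lies in the large subunit, had 0.0029, 0.28 and 0.098, a mean of 0.13 ± 0.14, and Mrps18b had 0.21, -0.27 and -0.16, a mean of -0.072 ± 0.25. The paralogs thus differed in order between arrays, with Mrps18c above the other 2 on every array. That difference was not tested.

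The symbol does not always name the place of a protein. Mrps30, like Mrps18a, is a protein of the large subunit in the mammalian structure, and had 0.27, -0.16 and 0.71, a mean of 0.27 ± 0.44. Mrps36, now placed in the oxoglutarate dehydrogenase complex rather than the ribosome, had -0.15, -0.21 and 0.67, a mean of 0.10 ± 0.49. In both genes array 3 was far above the other arrays. With Mrps30 and Mrps18a counted in the large subunit and Mrps36 in neither, a division chosen after seeing the data, the small subunit had 13 of 22 genes positive on all arrays and a median of 0.20, and the large subunit 17 of 49 and a median of 0.13.

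The 7 further small subunit genes that were positive on all arrays, Mrps15, Mrps33, Mrps14, Mrps23, Mrps11, Mrps25 and Mrps34, had means between 0.14 and 0.33. The 4 further genes with mixed signs, Mrps17, Mrps28, Mrps6 and Mrps9, had means between -0.22 and -0.015. Each of these 4 means was smaller than its SD over arrays, which ran from 0.10 to 0.33.

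In the large subunit, 16 of 47 genes (34.0%) were positive on all arrays, against 16.8% of all rows. Another 3 were negative on all (6.38%, against 18.5% of all rows) and 28 had mixed signs. The median of the gene means was 0.091, with 0.026 on array 1, 0.11 on array 2 and 0.043 on array 3. Both subunits had nearly the same median on array 2, and on array 1 the small subunit stood higher. Whether the subunits differ was not tested. Without array 1 the large subunit median was 0.16. With array 3 turned it was 0.0086, below the 0.042 of all rows in that setting, and 6 genes were positive on all arrays (18.9% of all rows).

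**Figure D2:**
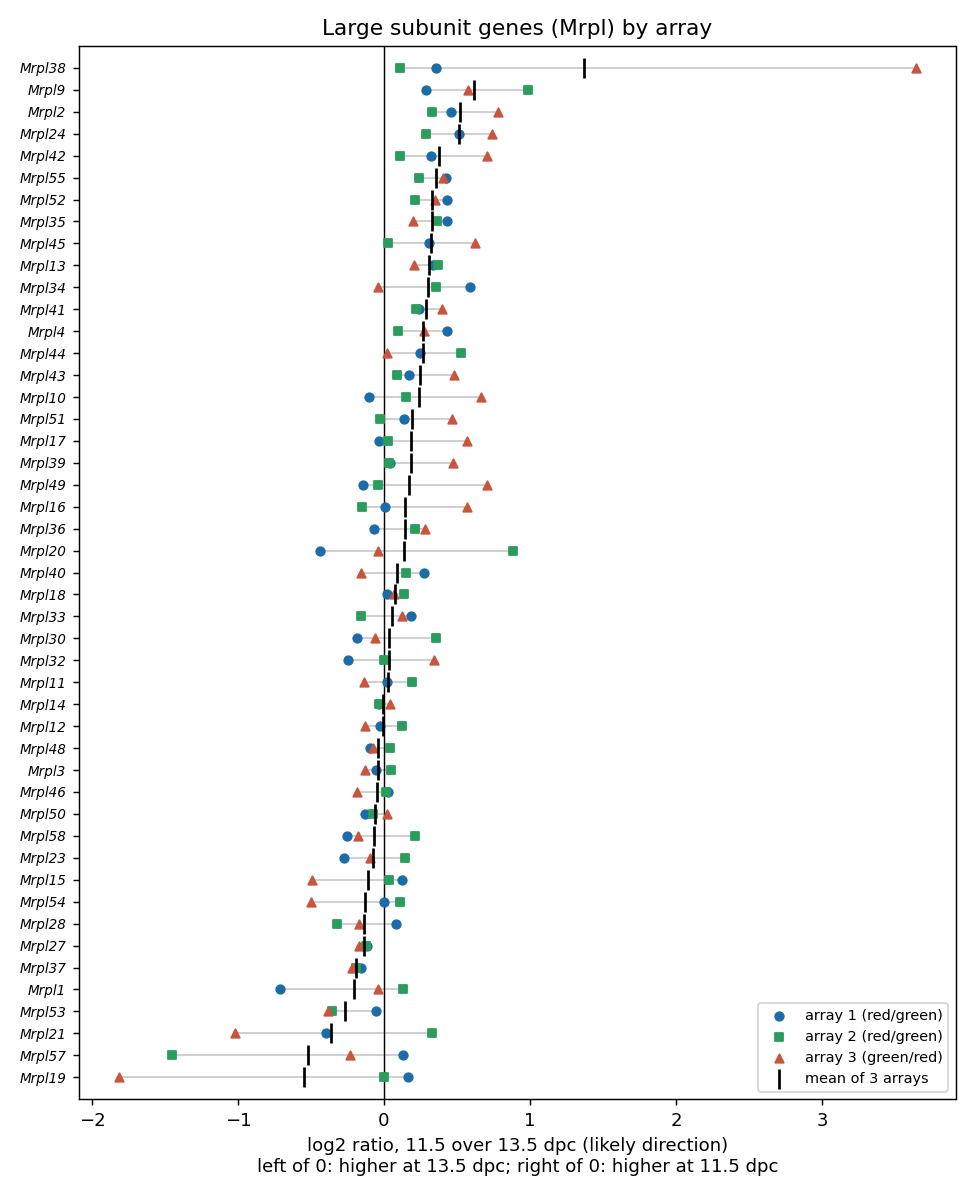
Log2 ratio of each of the 47 large subunit genes (horizontal axis, likely 11.5 over 13.5 dpc) on array 1 (circles), array 2 (squares) and array 3 (triangles), with the mean as a bar and a line over the range, ordered by the mean. Most means lie within 0.5 of 0, and the widest ranges, of Mrpl38 at the top and Mrpl19 at the bottom, come from array 3 values of 3.64 and -1.82.

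Mrpl2 is a core protein beside the site where peptide bonds are formed. It had 0.46, 0.33 and 0.78 on arrays 1, 2 and 3, a mean of 0.52 ± 0.23, and the lowest limma adjusted p of the large subunit, 0.535. Mrpl24, at the exit of the tunnel through which the new peptide leaves, had 0.52, 0.29 and 0.74, a mean of 0.52 ± 0.23 (limma adjusted p = 0.539). In both genes array 2 was the lowest and array 3 the highest, and every array was above 0. Mrpl9, a bacterial counterpart, had 0.29, 0.99 and 0.57, a mean of 0.62 ± 0.35 (limma adjusted p = 0.538), with array 2 the highest.

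Mitochondrial ribosomes work bound to the inner membrane, and the proteins around the tunnel exit include that anchor. Of 6 measured tunnel exit proteins, 4 were positive on all arrays and 5 had a positive mean, and their median was 0.23. Mrpl45, which binds the ribosome to the membrane, had 0.31, 0.030 and 0.63, a mean of 0.32 ± 0.30, and Mrpl44, which has the fold of an RNA-cutting enzyme, had 0.25, 0.53 and 0.020, a mean of 0.27 ± 0.26. Each had 1 array next to 0, array 2 for Mrpl45 and array 3 for Mrpl44. Mrpl39, found only in mitochondrial ribosomes and given for its promoter, had 0.044, 0.031 and 0.48, a mean of 0.18 ± 0.25 (limma adjusted p = 0.730), with array 3 far above the others. With array 3 turned the mean of Mrpl45 was -0.097, and the median of the 6 proteins, taken over their means, was -0.054.

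The stalk recruits translation factors to the ribosome, and its 3 measured proteins had a median of 0.027. Mrpl10, the base that carries the stalk, had -0.10, 0.15 and 0.67, a mean of 0.24 ± 0.39. Mrpl11 had 0.023, 0.20 and -0.14, a mean of 0.027 ± 0.17. Mrpl12, the flexible stalk protein that also binds the mitochondrial RNA polymerase, had -0.026, 0.13 and -0.13, a mean of -0.0096 ± 0.13. None of these 3 had 1 sign on all arrays. The same held for Mrpl3, a core protein mutated in human cardiomyopathy, with -0.053, 0.051 and -0.13, a mean of -0.044 ± 0.091.

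The central protuberance faces the small subunit and, in mammalian mitochondria, is built largely of proteins that bacteria lack. Of its 8 measured proteins, 3 were positive on all arrays (37.5%, against 16.8% of all rows), with a median of 0.083. Another 1 was negative on all (12.5%, against 18.5% of all rows). Mrpl38 had the highest mean of all 72 genes, 1.37 ± 1.97, from 0.36, 0.11 and 3.64 (limma adjusted p = 0.632). Array 3 alone held that value up, and the mean was 0.23 without it and -1.06 with its sign turned. Mrpl52 had 0.43, 0.21 and 0.35, a mean of 0.33 ± 0.11 (limma adjusted p = 0.574), a narrow range with no array near 0. Mrpl27 had -0.12, -0.12 and -0.17, a mean of -0.14 ± 0.032 (limma adjusted p = 0.753).

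Further genes named by rule with a narrow range above 0 were Mrpl55 (mean 0.36 ± 0.099), Mrpl35 (0.33 ± 0.12) and Mrpl41 (0.29 ± 0.098). Their limma adjusted p-values were 0.553, 0.575 and 0.597. The first and second are bacterial counterparts and Mrpl41 occurs only in mitochondria. Mrpl13, not named by rule, also had a narrow range above 0 (mean 0.31 ± 0.088). The lowest means belonged to Mrpl19, Mrpl57 and Mrpl21, and each had mixed signs. Mrpl19 had 0.16, 0.0029 and -1.82, a mean of -0.55 ± 1.10, and 0.083 without array 3. Mrpl57 had 0.13, -1.45 and -0.23, a mean of -0.52 ± 0.83, and Mrpl21 had -0.40, 0.33 and -1.02, a mean of -0.36 ± 0.68. A single array carried most of each mean, array 2 for Mrpl57 and array 3 for Mrpl19 and Mrpl21.

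The other negative genes of the large subunit, named after their values were seen, were Mrpl37 with -0.16, -0.19 and -0.22 (mean -0.19 ± 0.033, limma adjusted p = 0.682) and Mrpl53 with -0.054, -0.36 and -0.38 (mean -0.26 ± 0.18, limma adjusted p = 0.635). Mrpl27, given above, was named in the same way. The 6 other genes positive on all arrays, Mrpl42, Mrpl4, Mrpl43, Mrpl18 and the Mrpl13 and Mrpl39 given above, had means between 0.075 and 0.38. The 21 further genes with mixed signs had means between -0.21 and 0.30, among them Mrpl58, a peptide-releasing hydrolase built into the ribosome, at -0.071 ± 0.25.

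By origin, 28 of the proteins occur only in mitochondrial ribosomes and 43 have a bacterial counterpart. The medians were 0.19 for the mitochondria-specific proteins and 0.075 for the bacterial counterparts, and 15 genes of each kind were positive on all arrays (53.6% and 34.9%). With subunits divided by structure, as above for Mrps30, Mrps18a and Mrps36, 6 of 7 mitochondria-specific genes of the small subunit were positive on all arrays, and 7 of 15 bacterial counterparts. In the large subunit these numbers were 9 of 21 and 8 of 28. The order of the 2 medians was not stable. On array 2 the mitochondria-specific genes had 0.098 and the bacterial counterparts 0.14, and with array 3 turned these were 0.015 and 0.076. Of the genes with a positive mean at an unadjusted limma p under 0.05, 1 was mitochondria-specific and 6 were bacterial counterparts. Whether the kinds differ was not tested.

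RefSeq promoter windows, 250 bases before to 50 after the annotated start (GRCm38.p6), were found for 64 of the 72 genes, 70 windows in all. The motifs searched on both strands were the NRF1 motif, as capitalised in the Mrpl39 window with any base allowed in place of its single A, CCGGAAG (ETS), AAGATGGC (YY1) and CACGTG (the E-box bound by Myc family factors, which reads alike on both strands). The NRF1 motif stood in 12 windows (17.1%), against 7.49% of the promoters of other measured genes and 4.60% of all 32851 promoters. The ETS letters stood in 23 windows (32.9%, against 13.1% and 8.86%), the YY1 letters in 11 (15.7%, against 3.51% and 2.75%) and the E-box in 7 (10.0%, against 8.82% and 7.15%). Those 7 E-box windows belonged to only 5 genes, since Mrpl2 held 3 of them. At least 1 of the 4 motifs was in 44 of the 70 windows, a share that was not counted for other promoters and so cannot be compared. No ETS match overlapped a YY1 match.

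The median log2 ratio was 0.035 for the 12 genes with the NRF1 motif and 0.15 for the 52 without. It was 0.13 for the 23 genes with the ETS letters and 0.14 for the 41 without, and 0.14 on both sides for YY1 (11 and 53 genes) and for the E-box (5 and 59 genes). A match is a description of letters, and none of these differences was tested. Mrpl46 and Mrps11 are neighbours on chromosome 7 and had means of -0.047 and 0.20.

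The remaining genes of mitochondrial translation were followed through lists of named factors, and none of their measured genes passed the limma test after adjustment. Of 4 measured genes listed for the mitoribosome outside the symbol rule (Dap3, Ptcd3, Chchd1 and Oxa1l), 0 had 1 sign on all arrays. Their means lay between -0.060 and 0.072, the highest that of Oxa1l, which is not itself a ribosomal protein. Of 9 measured translation factors, 5 were positive (55.6%) and 1 negative (11.1%) on all arrays, with a median of 0.28. Over all rows these shares were 16.8% and 18.5%. Mrrf, which takes ribosomes off the mRNA after termination, had 0.67, 0.59 and 0.26, a mean of 0.51 ± 0.22 (limma adjusted p = 0.539). Mtfmt, which formylates the initiator tRNA, had a mean of 0.60 ± 0.42, and Gfm1, an elongation factor, 0.48 ± 0.59. Lrpprc, which stabilises mitochondrial mRNAs, went the other way on all arrays, with a mean of -0.32 ± 0.16 (limma adjusted p = 0.585).

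Among 17 measured factors of ribosome assembly and ribosomal RNA, 4 were positive (23.5%) and 3 negative (17.6%) on all arrays, with a median of 0.061. These shares were near the 16.8% and 18.5% of all rows. Dhx30, an RNA helicase of ribosome assembly, had -0.76, -0.25 and -0.76, a mean of -0.59 ± 0.29 (limma adjusted p = 0.534). Mterf3 had a mean of 1.38 ± 1.52, and as in Mrpl38 its array 3 value of 3.08 stood far above 0.90 and 0.16 on arrays 1 and 2. Eral1, a chaperone of the small ribosomal RNA, and Mrm3, a ribosomal RNA methyltransferase, had means of -0.35 ± 0.36 and -0.23 ± 0.12.

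Of 11 measured mitochondrial aminoacyl-tRNA synthetases and related enzymes, which charge the tRNAs, 3 were positive and 3 negative on all arrays. Each share was 27.3%, against 16.8% and 18.5% of all rows, and the median was 0.0063. The negative genes were Vars2, Wars2 and Yars2, with means of -0.35, -0.26 and -0.23, and Gatb had a mean of 0.23. Of 7 genes of mitochondrial DNA and transcription, 1 was positive and 1 negative on all arrays (14.3% each, against 16.8% and 18.5% of all rows). Ssbp1, which coats single-stranded mitochondrial DNA, had 1.41, 1.06 and 0.70, a mean of 1.06 ± 0.35 (limma adjusted p = 0.415) with all 3 arrays well above 0. Polg2, the accessory subunit of the mitochondrial DNA polymerase, had a mean of -0.19 ± 0.041.

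Of 8 measured regulators of mitochondrial biogenesis, 1 was positive and 2 were negative on all arrays, with a median of -0.16. Gabpb1, a subunit of GABP, had 0.49, 0.41 and 0.55, a mean of 0.49 ± 0.071 (limma adjusted p = 0.524). Gabpa, another subunit of GABP, had 0.85, 0.69 and -0.54, and Nrf1 had 0.010, -0.44 and -0.091. These genes, named after their values were seen, thus had mixed signs. Mycn, a Myc family factor, had -0.73, -0.77 and -0.52, a mean of -0.67 ± 0.13 (limma adjusted p = 0.472), so its ratio and that of Gabpb1 had opposite signs on every array. Pprc1, a coactivator of mitochondrial genes, had -0.51, -2.56 and -0.27, a mean of -1.12 ± 1.26, with array 2 apart.

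**Figure D3:**
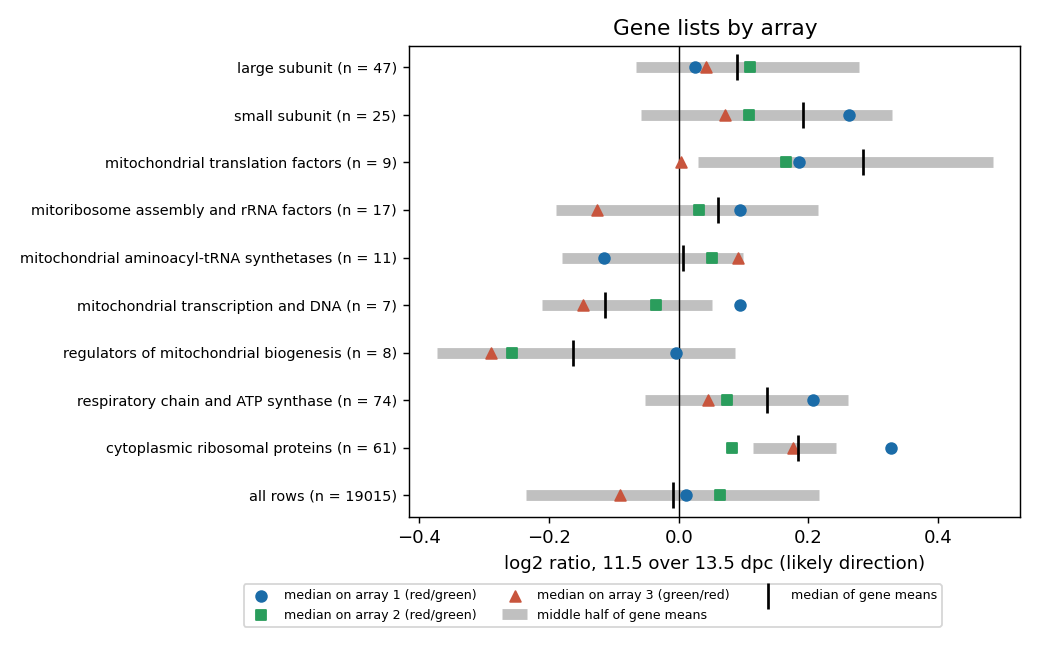
Medians of the log2 ratios (horizontal axis, likely 11.5 over 13.5 dpc) of each gene list on array 1 (circles), array 2 (squares) and array 3 (triangles), with the median of the gene means as a bar and the interquartile range of the gene means in grey; n is the number of genes measured. Both subunits lie right of 0 on each array, and all rows do on arrays 1 and 2 (0.0115 and 0.0635). On array 1 the large subunit is at 0.026 and the respiratory chain list at 0.21. The 61 cytoplasmic ribosomal protein genes have a narrower spread around a median of 0.18.

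The 41.7% of mitochondrial ribosomal protein genes that were positive on all arrays stood beside 39 of 61 cytoplasmic ribosomal protein genes (63.9%) and 26 of 74 genes of the respiratory chain and ATP synthase (35.1%). The median of 0.14 stood beside 0.18 for the cytoplasmic list and 0.14 for the respiratory list. A positive mean was found for 46 of the 72 mitochondrial ribosomal protein genes, 58 cytoplasmic ribosomal protein genes and 50 respiratory genes. Whether the lists differ was not tested.

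Markers of the kidney and of other cell types also had ratios away from 0, and their part in the results above was not tested. Of 12 measured erythroid markers 10 were positive on all arrays, with a median of 1.09, and list medians on arrays 1, 2 and 3 of 0.57, 1.32 and 1.02. Macrophage markers were positive on all arrays in 4 of 6 genes (median 0.25), while endothelial markers were negative on all in 7 of 9 (median -0.40) and metanephric kidney markers in 7 of 12 (median -0.22). The medians were -0.59 for 6 neural crest and neuron markers, -0.48 for 6 muscle markers and -0.57 for 5 gonad and adrenal markers. The ratios show no level, so neither the amount of a marker in each age nor its absence could be read.

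**Figure D4:**
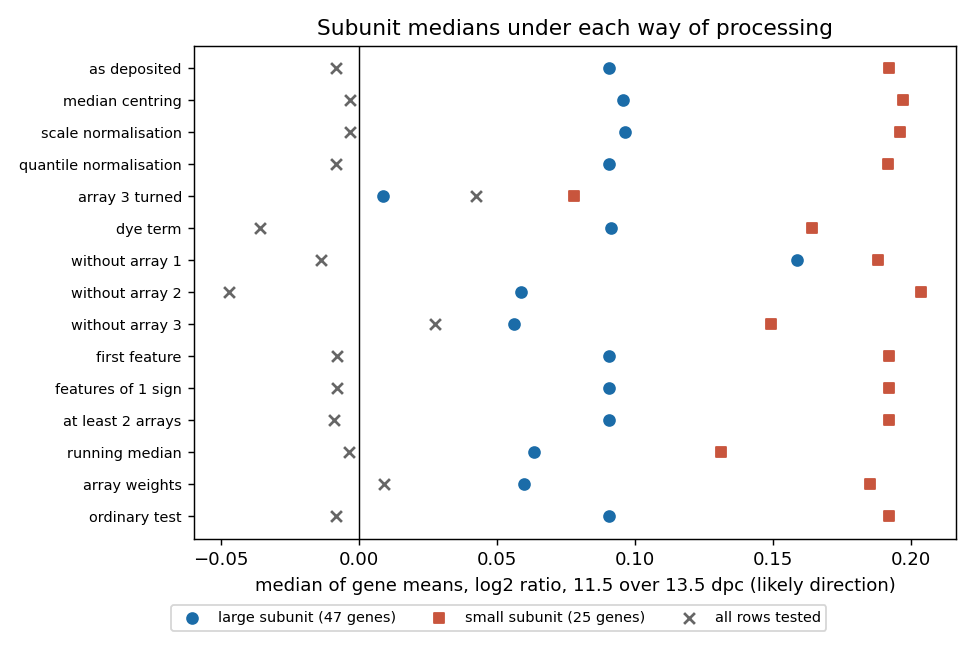
Median log2 ratio (horizontal axis, likely 11.5 over 13.5 dpc) of the gene means of the large subunit (circles), the small subunit (squares) and all rows tested (crosses) with the values as deposited (top) and under each alternative way of processing. Both subunits stay right of all rows except with array 3 turned, where the large subunit is at 0.0086 and all rows are at 0.042.

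The medians of both subunits were positive in each alternative processing. With array 3 turned, 42 of the 72 genes (against 55.7% of all rows) had a positive mean, and in the other alternatives 42 to 50 did (against 44.7% to 52.7% of all rows). Of the genes described above by the rule for named genes, 11 changed the sign of their mean with array 3 turned: Mrpl38, Mrpl19, Mrpl21, Mrps24, Mrps36, Mrpl12, Mrpl10, Mrpl3, Mrpl45, Mrps18b and Mrps30.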

How the data were processed

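Each of 3 two-channel arrays compared RNA of the ages 13.5 and 11.5 dpc. The deposited values are log2 ratios normalised by the authors; the base follows from the values, since 100% of them, raised from base 2, fall on steps of 0.001. Per the labels, images were read with ImaGene 5.5, and the labels give 2 accounts of the normalisation, print-tip loess with a between-array step, and a Lowess curve through 20% of the data with a control channel minimum of 10. Which of them made the values is not stated. Intensities and detection calls were not used here, so signal over background is unknown.

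Controls and blanks (883 of 22702 features) were left out. Of 21819 gene features, 16656 had 1 gene symbol, 137 several and 5026 none; features of one symbol were averaged and only rows with values on all 3 arrays kept, giving 19015 rows. Array 3, the dye swap, was used as deposited. The mean log2 ratio was tested against 0 with limma 3.58.1 (R 4.3.3; lmFit and eBayes, two-sided), adjusted over all rows by Benjamini-Hochberg at 0.05, after the fit had been tested on simulated data. Counts and promoter searches used Python 3.11.15. Lists are described by counts and medians only. Genes given with values are, in each subunit, the 6 with the largest statistic among those of 1 sign on all arrays, the 3 highest, the 3 lowest, the 2 with the largest SD and a fixed set of functional interest; in the other lists, up to 4 genes with the smallest p and 1 sign. The members, lists and rules were chosen with earlier results of these data known. Alternatives changed centring, scaling (to a common median absolute value, or by quantiles), the sign of array 3, a dye term, the arrays, the averaging of features, missing values, position in the oligonucleotide library (a running median over 501 features), array weights and the test.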

Additional observations from a re-analysis of the deposited data

How the results depend on the processing

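No mitochondrial ribosomal protein gene passed the adjusted threshold in the fit of all arrays or in any of the 14 alternatives of that test. Each of these genes had 1 feature with a value on all 3 arrays. The alternatives of feature averaging and of missing values therefore could not change their ratios, and the ordinary test left their means as they were. As deposited, none reached 1.5-fold, 2-fold or 3-fold in 1 direction on each array taken singly. With array 3 turned, the count at an unadjusted p with a positive mean was 0 in place of 7, where 4.39% of all rows were counted. The median was 0.0086 for the large and 0.078 for the small subunit. In that setting 6 large and 0 small subunit genes were positive on all arrays, against 18.9% of all rows. On the other side 2 small subunit genes were negative on all, against 10.3% of all rows. Of the 31 genes named by rule, 11 changed the sign of their mean, among them Mrpl45 at -0.097. With a dye term the count at an unadjusted p with a negative mean was 1, and with an ordinary test 2, in place of 0 (6.69% and 4.93% of all rows). With the running median subtracted, the positive count was 3 (4.18% of all rows). In that setting 9 small subunit genes were positive and 2 negative on all arrays (17.7% and 17.6% of all rows). Median centring, scaling and quantile normalisation each gave 11 small subunit genes positive on all arrays, in place of 14 (17.5% to 17.8% of all rows). Without 1 array each, the positive count ranged from 0 to 2, beside 1.53% to 7.06% of all rows, and the large subunit median from 0.056 to 0.16. Genes negative on all remaining arrays, where fewer arrays must share a sign, ranged from 5 to 13 in the large and 2 to 5 in the small subunit. They were fewest without array 1 and most without array 2, where 26.7% and 31.1% of all rows were negative. The cause of the other differences was not tested. The ratio within each array already pairs the ages. A further fit with a replicate block could not be made because the arrays form 1 group. The direction of the ratio and the orientation of array 3 limit every sign given, and 3 arrays, with no intensities used here, limit what small ratios can show.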
